A study of Mus musculus with 12 samples.

Results

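Transcripts of 10 genes of the Hippo pathway were measured in mouse tumors and in normal mouse lung. The genes are the coactivators Yap1 and Wwtr1 (the gene of TAZ), the TEAD transcription factors Tead1, Tead2, Tead3 and Tead4, the kinases Lats1 and Lats2, and the binding proteins Amotl2 and Ajuba. They were chosen by symbol, all 10 were found among the 30399 genes of the table, and all 10 were among the 23674 genes tested. The tumors come from a study that used nonviral CRISPR/Cas9 mutagenesis, in which a nuclease cuts chosen genes, to make mouse models of lung cancer. Poly-A RNA was sequenced from 5 samples labelled normal lung and 7 samples labelled tumor. The labels give no strain, age, targeted gene, delivery route or treatment for either group. The titles of tumors 3 and 4 share a number, as do those of tumors 5, 6 and 7, so the 7 tumors carry 4 distinct numbers. The titles of tumors 1 and 7 hold a Spanish word for trachea, those of tumors 3 to 6 one for lung, and that of tumor 2 neither. What the numbers stand for is not stated, and p-values therefore measure only the spread between these samples, some of which may come from 1 animal.

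The Hippo pathway is a kinase cascade that restrains organ growth. When it is active, MST kinases activate LATS kinases, which phosphorylate YAP and TAZ and keep them out of the nucleus. When it is inactive, YAP and TAZ enter the nucleus and bind TEAD proteins, which sit on DNA and switch on genes of growth, adhesion and the cytoskeleton. In lung, YAP and TAZ are best known for their part in alveolar type 1 cells and in repair of the epithelium. Small cell and other neuroendocrine lung cancers are known for low YAP1. RNA levels do not measure the phosphorylation by which the pathway mainly acts.

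The labels were checked against markers, with the values of each marker list summed. The neuroendocrine markers Chga, Syp, Insm1 and Calca summed to 73.4 to 100.1 normalized counts in normal lung and to 19207 to 86304 in tumors, and all 4 were higher in tumor. The 5 alveolar type 1 markers summed to 56810 to 107180 in normal lung and to 1162 to 2834 in tumors, and the 4 type 2 markers to 96796 to 157930 and to 735 to 2335. Endothelial markers went from between 54820 and 68035 to between 701 and 4556, and leukocyte markers from between 81901 and 161759 to between 321 and 10716. All genes of these 4 lists were called lower in tumor, and the T cell marker Cd3e was at 0 in 3 tumors. In normal lung Lyz2 made up most of the leukocyte sum (78689 to 157579). In tumor 7 the leukocyte marker Ptprc (3291) was above every normal lung (1988 to 3120). Cd68 (1419) and Cd3e (248) in tumor 7 lay within the range of normal lung. Sums of the other lists overlapped between the groups. Fibroblast markers summed to 8909 to 21658 in normal lung and 2975 to 28352 in tumors (1 of 5 genes lower, 4 not called). Smooth muscle and pericyte markers summed to 5567 to 10439 and 1213 to 9575 (3 of 5 lower, 2 not called). Mesothelial markers summed to 738 to 2012 and 1.98 to 838 (2 of 3 lower, 1 not called). No cardiac or basal cell marker was called. The alveolar, endothelial and leukocyte sums fell in the tumors, as did most of the Hippo genes described below, though not Tead1 or Lats1. The part of all these cell types in those results was not tested. Fewer cells of a type and less RNA per cell cannot be told apart in bulk tissue. Sequencing depth was 11126432 to 17032234 reads for normal lung, 13093843 to 24217633 for tumors, and 3 reads correspond to at most 4.85 and 3.57 normalized counts.

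TEAD proteins bind the letters CATTCC, read as GGAATG on the other strand, the core of what is known as the M-CAT element. Promoters of 8 of the 10 genes were matched in the RefSeq table (assembly GRCm38.p6, 250 bases before to 50 after the start site). The letters, on either strand, were present in 1 or more windows of 6 of these 8 genes (Yap1, Wwtr1, Tead3, Lats2, Amotl2 and Ajuba) and absent from those of Tead2 and Lats1. Over all genes of the promoter table, 16.6% had such a window. Of 13 target genes with an entry, 5 held the letters (Ccn1, Ankrd1, Axl, Crim1 and Ptpn14), and F3, Foxf2, Myof, Rbms3, Gadd45a, Igfbp3, Nt5e and Tgfb2 did not. Stretches around the letters are shown for the 4 genes that fell most clearly among those with a match, and for Ccn1, a well known target gene, as 1 of the targets that hold them. Each runs 5′ to 3′ on the strand of the gene, with the letters in capitals.
Yap1 (chr9:8004702-8004767, minus strand, match 141 bases before the start): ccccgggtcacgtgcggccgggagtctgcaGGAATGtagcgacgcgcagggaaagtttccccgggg
Wwtr1 (chr3:57576011-57576076, minus strand, match 136 bases before the start): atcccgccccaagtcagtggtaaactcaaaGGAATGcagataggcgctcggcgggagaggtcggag
Amotl2 (chr9:102717709-102717774, plus strand, match 65 bases before the start): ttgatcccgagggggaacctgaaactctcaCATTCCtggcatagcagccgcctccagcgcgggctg
Ajuba (chr14:54577790-54577877, minus strand, matches 186 and 164 bases before the start): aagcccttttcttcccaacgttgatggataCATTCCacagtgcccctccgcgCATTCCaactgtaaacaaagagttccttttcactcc
Ccn1 (chr3:145650053-145650118, minus strand, match 103 bases before the start): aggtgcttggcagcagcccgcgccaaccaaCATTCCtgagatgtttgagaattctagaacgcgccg
Ajuba held the letters in 2 places, as did the target gene Ankrd1. In 1 window of Tead3 they were found 2 times on the strand of the gene and 1 time on the other. These coordinates belong to GRCm38.p6, whereas the read counts were made on GRCm39. A match describes the sequence and was not tested for binding.

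Transcripts of both coactivators fell in the tumors, as did those of Tead2, Tead3, Tead4, Amotl2 and Ajuba, whereas Tead1 and Lats1 did not pass the test. A gene is called lower or higher at an adjusted p under 0.05 in the limma fit over all genes. Lats2 was near the detection limit and is described apart. Of the other 9 genes, 7 were lower, 0 higher and 2 not called, and their median log2 fold change was −3.78. Over all genes tested, 30.1% were lower and 31.4% higher in tumor, and the median was 0.04. In 6 of the 9, every tumor lay below every normal lung, which was so for 18.4% of all genes tested.

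**Figure D1:**
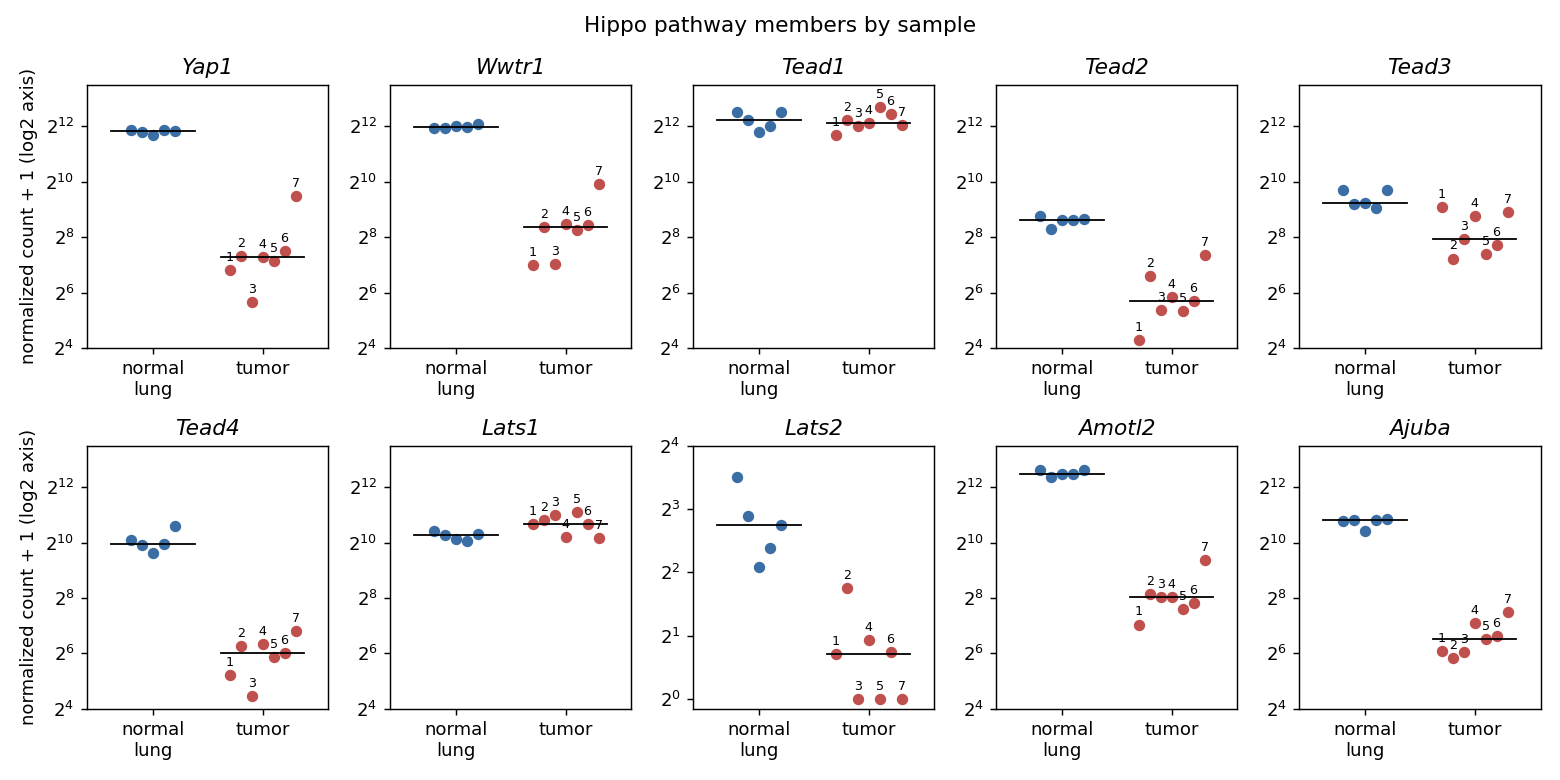
Normalized counts plus 1 on a log2 axis for each of the 10 genes, with 1 point per sample, tumors numbered 1 to 7, and a line at the group median. Lats2 has an axis of its own, and its values rest on 0 to 8 reads. Groups are apart for Yap1, Wwtr1, Tead2, Tead4, Amotl2 and Ajuba, and overlap for Tead1, Tead3 and Lats1.

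Yap1 encodes YAP, a coactivator that binds DNA only through partners such as TEAD. Yap1 stood at 3709, 3603, 3332, 3723 and 3639 normalized counts in the 5 normal lungs. Tumors 1 to 7 had 111, 157, 49.6, 154, 140, 179 and 721. Tumor 7 was highest at 4.02 times the next tumor, tumor 3 was lowest, and the groups did not overlap. The mean was 3601 ± 158 (SD, n = 5) in normal lung and 216 ± 227 (SD, n = 7) in tumors, a ratio of 16.7. On the log2 scale tumors differed by −4.50 (SE 0.46, limma adjusted p = 2.04e-06). Without tumor 7 the tumor mean was 132 and the difference −4.87. With edgeR on the recovered reads of 11 samples, which left out tumor 3, the difference was −3.78. With limma without tumor 3 the difference was −4.23.

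Wwtr1 encodes TAZ, the close relative of YAP. In normal lung Wwtr1 stood at 3921, 3958, 4096, 4067 and 4372 normalized counts. Tumors 1 to 7 had 127, 326, 129, 357, 303, 349 and 964. Tumor 7 was again highest, at 2.70 times the next, and tumors 1 and 3 were lowest. The mean went from 4083 ± 178 (SD, n = 5) to 365 ± 282 (SD, n = 7), a log2 difference of −3.78 (SE 0.40, limma adjusted p = 2.99e-06). Among normal lungs the SD of the log2 values was 0.06 for Yap1 and 0.06 for Wwtr1, whereas among tumors it was 1.14 and 0.99.

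Several marker lists of other cell types also had their highest tumor sum in tumor 7, whose title holds the word for trachea. The 2 alveolar lists did not. In tumor 7 the fibroblast markers summed to 28352 normalized counts against at most 20368 in the other tumors, leukocyte markers to 10716 against at most 2910, endothelial markers to 4556 against at most 2760, smooth muscle and pericyte markers to 9575 against at most 3780, and mesothelial markers to 838 against at most 311. The cardiac markers Myh6 and Tnnt2 summed to 23837 in tumor 7 and to at most 1268 in the other tumors. The mesothelial markers Upk3b and Wt1 were each at 0 in 1 tumor. Not every gene of these lists was highest in tumor 7. The fibroblast marker Pdgfra was highest in tumor 3, at 2949 against 781 in tumor 7. The pericyte marker Cspg4 was highest in tumor 5 (1441 against 1367), and the mesothelial marker Msln in tumor 1 (238 against 195). The alveolar type 1 sum was highest in tumor 5, at 2834 against 2366 in tumor 7. The type 2 sum was also highest in tumor 5, at 2335 against 946 in tumor 7. Genes of the type 1 list were divided. Clic5 (1198) and Hopx (446) were, like Yap1, highest in tumor 7 and lowest in tumor 3. Ager, Rtkn2 and Aqp5 were lowest in tumor 7. Basal cell markers, at 3.97 to 217 in tumors and 7.53 to 94.3 in normal lung, were highest in tumor 4. Neuroendocrine markers were lowest in tumor 7. Tumor 3, lowest for Yap1, was also lowest for the endothelial, leukocyte, mesothelial, alveolar type 2, basal and cardiac sums. The type 1 and fibroblast sums were lowest in tumor 1, and the smooth muscle and pericyte sum in tumor 2. Tumor 7 was the highest tumor for 24.5% of all genes tested and for 49.6% of the genes lower in tumor. Of the 9 genes, it was highest for the 6 whose groups did not overlap. The 7 calls of lower levels were also made without tumor 7, and the part of these cells in the levels was not tested.

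The 4 TEAD genes encode transcription factors that share the TEA DNA-binding domain. Tead1 stood at 5854, 4864, 3589, 4142 and 5839 normalized counts in normal lung. Tumors 1 to 7 had 3279, 4806, 4138, 4511, 6614, 5639 and 4278. The groups overlapped throughout, with means of 4857 ± 1010 (SD, n = 5) and 4752 ± 1087 (SD, n = 7). Tead1 differed by −0.04 on the log2 scale (SE 0.18, limma adjusted p = 0.870), and over 23 alternatives this value ran from −0.14 to 0.17 without a call.

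Tead4, best known for its role in the trophectoderm of the early embryo, had the largest fold change of the TEAD genes. Normal lungs had 1097, 969, 785, 992 and 1565 normalized counts, and tumors had 20.8 at the lowest, 63.3 at the median and 111 at the highest. All tumors were far below all normal lungs, with a log2 difference of −4.20 (SE 0.36, limma adjusted p = 3.61e-07). Tead2 had 435, 316, 388, 392 and 406 normalized counts in normal lung, and 18.4 at the lowest, 50.5 at the median and 163 at the highest in tumors. Every tumor was below every normal lung, with a log2 difference of −2.82 (SE 0.42, limma adjusted p = 6.54e-05), or −3.41 with the mean level of Y-linked genes as covariate. Part of its annotated span overlaps Cd37 on the other strand, and part of that of Tead1 overlaps 2310014F06Rik, so their counts are uncertain where counting did not use the strand.

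Tead3 had 833, 582, 598, 526 and 827 normalized counts in normal lung and 541, 149, 241, 431, 166, 209 and 485 in tumors 1 to 7. Tumor 1 reached into the range of normal lung and the other tumors were below it. Tead3 was lower by a log2 difference of −1.23 (SE 0.33, limma adjusted p = 0.00612). With the Y-linked covariate it was −0.77 and not called (adjusted p = 0.139, the highest of its 23 alternatives, of which the lowest was 3.46e-04). That covariate is high in 4 normal lungs and in tumor 1 and low in normal lung 3 and the other 6 tumors, so it and the tissue are partly confounded.

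Tead1 made up more of the summed TEAD level in tumors. Divided by gene length in kilobases (union of exons), Tead1 was 40.1% to 45.9% of the TEAD sum in normal lung, with a median of 41.2%, and 69.7% to 90.9% in tumors, with a median of 84.9%. The share of Tead4 per kilobase went from between 32.1% and 40.5% to between 1.63% and 6.81%. Tead3 kept overlapping shares, 10.6% to 13.6% in normal lung and 4.61% to 24.0% in tumors, with the highest in tumor 1. The sum of the 4 genes was 653 to 1073 normalized counts per kilobase in normal lung and 336 to 536 in tumors. These shares describe unequal change and carry no test.

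Relative to the TEAD sum, coactivator transcripts were lower in every tumor than in any normal lung. The ratio of Yap1 plus Wwtr1 to the TEAD sum, per kilobase, was 1.22 to 1.86 in normal lung (median 1.56) and 0.09 to 0.62 in tumors (median 0.19). Wwtr1 was the larger of the pair in every sample, and Yap1 made up 29.6% to 32.8% of their sum per kilobase in normal lung and 16.6% to 31.1% in tumors. That last share depends on the length used. With the longest annotated transcript, its median in normal lung was 44.7%, against 32.0% with the union of exons, and its range in tumors was 25.5% to 43.8%.

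**Figure D2:**
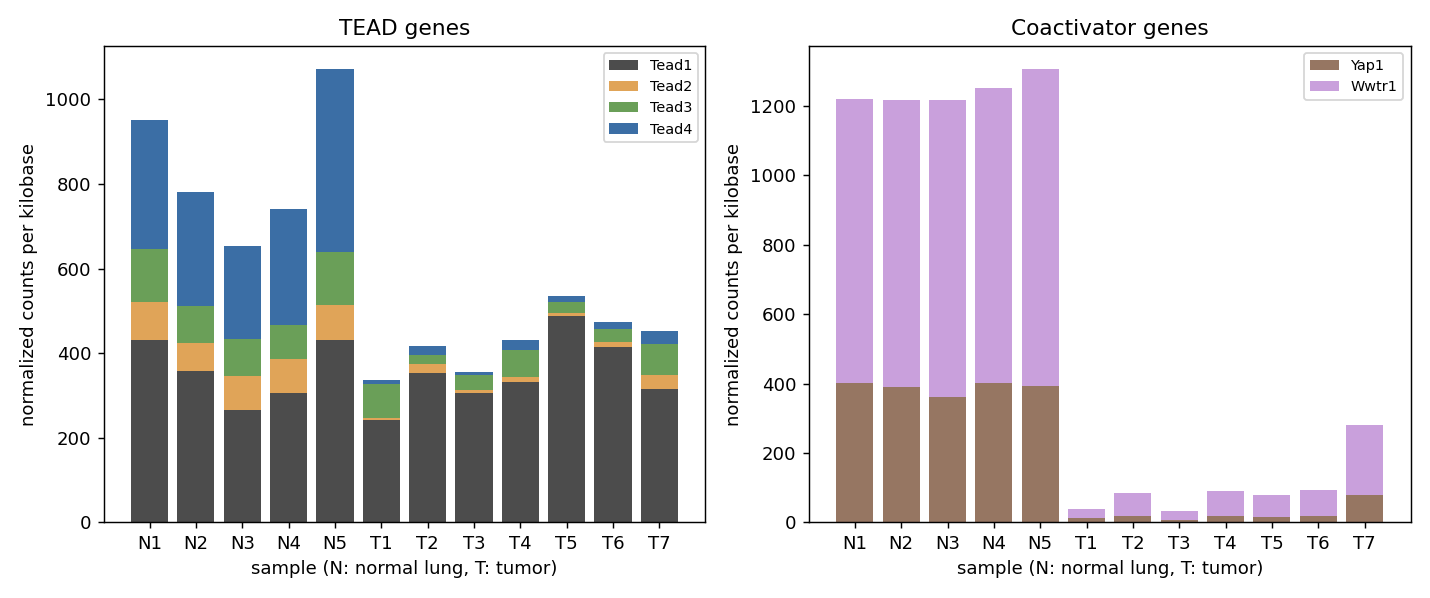
Stacked bars of normalized counts per kilobase of exon in each sample (N1 to N5 normal lung, T1 to T7 tumors), for the 4 TEAD genes on the left and for Yap1 and Wwtr1 on the right, with axes that start at 0. The TEAD sum is 653 to 1073 in normal lung and 336 to 536 in tumors, where Tead1 makes up 69.7% to 90.9% of it.

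LATS1 and LATS2 are the kinases that phosphorylate YAP and TAZ. Lats1 had 1358, 1230, 1127, 1062 and 1275 normalized counts in normal lung, and 1614, 1788, 2035, 1161, 2191, 1611 and 1147 in tumors 1 to 7. In 5 of the 7 tumors Lats1 was above every normal lung, and tumors 4 and 7 lay within the range of normal lung. Lats1 differed by 0.41 on the log2 scale (SE 0.18, limma adjusted p = 0.0556), just outside the threshold. In 6 of the 23 alternatives it passed, among them without tumor 7 (0.49, adjusted p = 0.0165), without tumor 4 (0.49, adjusted p = 0.0240) and with edgeR (0.48, adjusted p = 0.0407). Its adjusted p ran from 0.00767 to 0.154 over all 23. The lowest came from scaling all columns to equal totals, which also moved the median of all genes by 0.19 and gave Lats1 0.62.

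Lats2 was counted in few reads in both groups. Normal lungs had 8, 6, 2, 3 and 5 reads, 24 in all, and tumors 1 to 7 had 1, 2, 0, 1, 0, 1 and 0, 5 in all. No tumor exceeded 3 reads, and normal lung 3 and tumor 2 had 2 reads each, so no fold change or separation of the groups is given. The limma adjusted p was 3.47e-04, but Lats2 passed the filter on low values only through normal lung. Its annotated span overlaps Gm49361 on the same strand (a gene chosen after its values were seen), which had 343 reads in normal lung and 1034 in tumors, so how reads were divided between them is uncertain.

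Amotl2 and Ajuba encode proteins that bind pathway components. AMOTL2 is an angiomotin that holds YAP and TAZ at cell junctions, and its gene is itself a target of YAP. Amotl2 had 6248, 5321, 5711, 5710 and 6240 normalized counts in normal lung, and 130 at the lowest (tumor 1), 260 at the median and 654 at the highest (tumor 7) in tumors. Every tumor was below every normal lung. The mean was 5846 ± 397 (SD, n = 5) in normal lung and 287 ± 170 (SD, n = 7) in tumors, a ratio of 20.4 and a log2 difference of −4.51 (SE 0.29, limma adjusted p = 2.94e-08).

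AJUBA is a LIM protein that binds LATS kinases and restrains them. Ajuba had 1751, 1808, 1353, 1787 and 1844 normalized counts in normal lung, and 56.0 at the lowest (tumor 2), 89.8 at the median and 181 at the highest (tumor 7) in tumors. The groups were widely apart, and the log2 difference was −4.20 (SE 0.27, limma adjusted p = 2.89e-08). Apart from Lats2, each called gene of the 10 kept its direction in all alternatives.

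Per kilobase, the order of levels differed between the groups. In normal lung Amotl2 (median 908) and Wwtr1 (851) led and had overlapping ranges. Ajuba (490), Yap1 (393), Tead1 (358) and Tead4 (276) followed, each overlapping its neighbour, then Lats1 (169), and last Tead3 (89.0) and Tead2 (81.9), which overlapped. In tumors Tead1 (332) and Lats1 (221) led with overlapping ranges. Wwtr1 (68.3), Amotl2 (41.3), Tead3 (35.9), Ajuba (24.6), Tead4 (17.6), Yap1 (16.6) and Tead2 (10.6) followed, each overlapping the next, and Wwtr1 reached the range of Lats1 in tumor 7. The order depends on the length used. With the longest transcript, Amotl2 (1202 to 1411), Wwtr1 (835 to 931) and Yap1 (631 to 705) followed each other in normal lung without overlap, Yap1 stood above Ajuba (398 to 543), and Tead3 (153 to 242) overlapped Lats1 (147 to 188). In tumors Tead1 (329 to 664) and Lats1 (159 to 304) were then apart, the median of Tead3 (70.0) was close to that of Wwtr1 (69.5), and the median of Yap1 (29.1) was above those of Ajuba (26.4) and Tead4 (20.6).

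Genes whose pattern over the 7 tumors was most like that of Yap1 were found by the root mean square difference of centred log2 values, among 14806 genes with a mean log2 value of at least 5. The 6 closest were Tlr4 (0.23), Dnase2a (0.23), Dhx58 (0.24), Als2cl (0.25), Prkch (0.25) and Nagpa (0.25). Yap1 itself had a spread of 1.06 on that scale. All 6 were, like Yap1, highest in tumor 7 and lowest in tumor 3. Among the Hippo genes, Wwtr1 was closest to Yap1 (0.40, place 113 among all genes), followed by Tead4 (0.54, place 378), whereas Tead1 was at 1.07 (place 4447). Likeness is a description over 7 samples that share tumors 3 and 7 as extremes.

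The remaining pathway genes were taken from 4 lists chosen from general knowledge. Of 47 listed genes, 46 were in the table. Counts are uncertain, as for Tead1 and Tead2, for those whose annotated span overlaps a gene on the other strand, namely Stk4, Sav1, Taok1, Fat4, Dchs1, Rassf1, Crb3, Ccn2, Crim1, Gadd45a and Tgfb2. In all, 25 were lower, 5 higher and 16 not called, and in 19 every tumor lay below every normal lung. These counts, and those of each list below, stand beside 30.1% lower, 31.4% higher and 18.4% with every tumor below among all genes tested.

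Of 11 genes of the kinase module 5 were lower, 3 higher and 3 not called (30.1% lower and 31.4% higher among all genes), with a median log2 fold change of 0.01 against 0.04 over all genes. The share called higher was near that of all genes. MST1, encoded by Stk4, is the first kinase of the core cascade, and Stk4 went from 3276 to 4228 normalized counts in normal lung to 752 to 1625 in tumors (−1.67, SE 0.17, limma adjusted p = 2.56e-06). Its relative Stk3, which encodes MST2, was 886 to 1114 and 945 to 1212 and was not called (0.16, adjusted p = 0.260). The scaffold Sav1 (−1.18) and the LATS activators Mob1a (−1.71) and Mob1b (−0.68) were lower in every tumor, as was Taok3, a kinase that activates MST, with 2367 to 4240 normalized counts in normal lung and 257 to 2190 in tumors. Map4k4, a kinase that activates LATS alongside MST, was higher in every tumor, with 2707 to 3241 normalized counts in normal lung and 5387 to 10524 in tumors (1.36, SE 0.16, limma adjusted p = 8.47e-06). Taok1 (0.49, adjusted p = 0.0366) and Stk38 (0.34, adjusted p = 0.0458) were called higher by a small margin, and those calls were lost in 10 and 14 of the 23 alternatives.

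Among 9 upstream genes 4 were lower, 1 higher and 4 not called, against 30.1% lower and 31.4% higher over all genes, with a median of −0.98. In so short a list this is a difference of few genes. WWC1 (KIBRA) and WWC2 are scaffolds that activate LATS. Wwc1 went from 3957 to 5441 normalized counts in normal lung to 20.8 to 1649 in tumors (−4.94, SE 0.74, limma adjusted p = 7.08e-05), with tumor 1 at 1649 and the next at 266. Wwc2 fell by 4.63 on the log2 scale, and Crb3, a polarity protein of the apical membrane, fell by 4.19 on the log2 scale. Frmd6 (−2.10), a FERM-domain protein like merlin, was also lower in every tumor, whereas Nf2, the gene of merlin, was not called (0.12, adjusted p = 0.538). Dchs1, a ligand of FAT cadherins, was higher in 6 of 7 tumors, at 1483 to 3971 normalized counts against 248 to 654 in normal lung. Tumor 1 had 193, below every normal lung. Dchs1 was higher by 2.09 on the log2 scale (SE 0.62, limma adjusted p = 0.00987), and the call was lost with the Y-linked covariate and with tumors of 1 title number averaged. Fat1 ranged from 739 to 7016 in tumors against 1684 to 3118 in normal lung and was not called.

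Of the 7 binding partners and TEAD cofactors measured, 5 were lower, 0 higher and 2 not called, against 30.1% lower and 31.4% higher over all genes, with a median of −1.07. Amotl1, a second angiomotin, went from 2738 to 4174 normalized counts in normal lung to 158 to 1640 in tumors (−2.62, SE 0.41, limma adjusted p = 1.02e-04). Amot, the founding member, was 242 to 330 and 168 to 491 and was not called (−0.14, adjusted p = 0.687), with a sign that turned in 4 alternatives. Limd1 (−0.62) and Wtip (−1.08), LIM proteins of the Ajuba family, were lower in every tumor. Vgll3, a TEAD cofactor, fell by 3.79 on the log2 scale. Vgll4, which competes with YAP for TEAD, was lower in 6 of 7 tumors and highest in tumor 1, at 3163 against at most 2890 in normal lung. Its log2 fold change was −1.07 (adjusted p = 0.0105), and it was not called with edgeR (adjusted p = 0.102), with DESeq2 (adjusted p = 0.0602) or with the Y-linked covariate. Vgll2 passed the filter only through tumor 2, with 53.6 normalized counts there and at most 1.92 in any other sample.

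**Figure D3:**
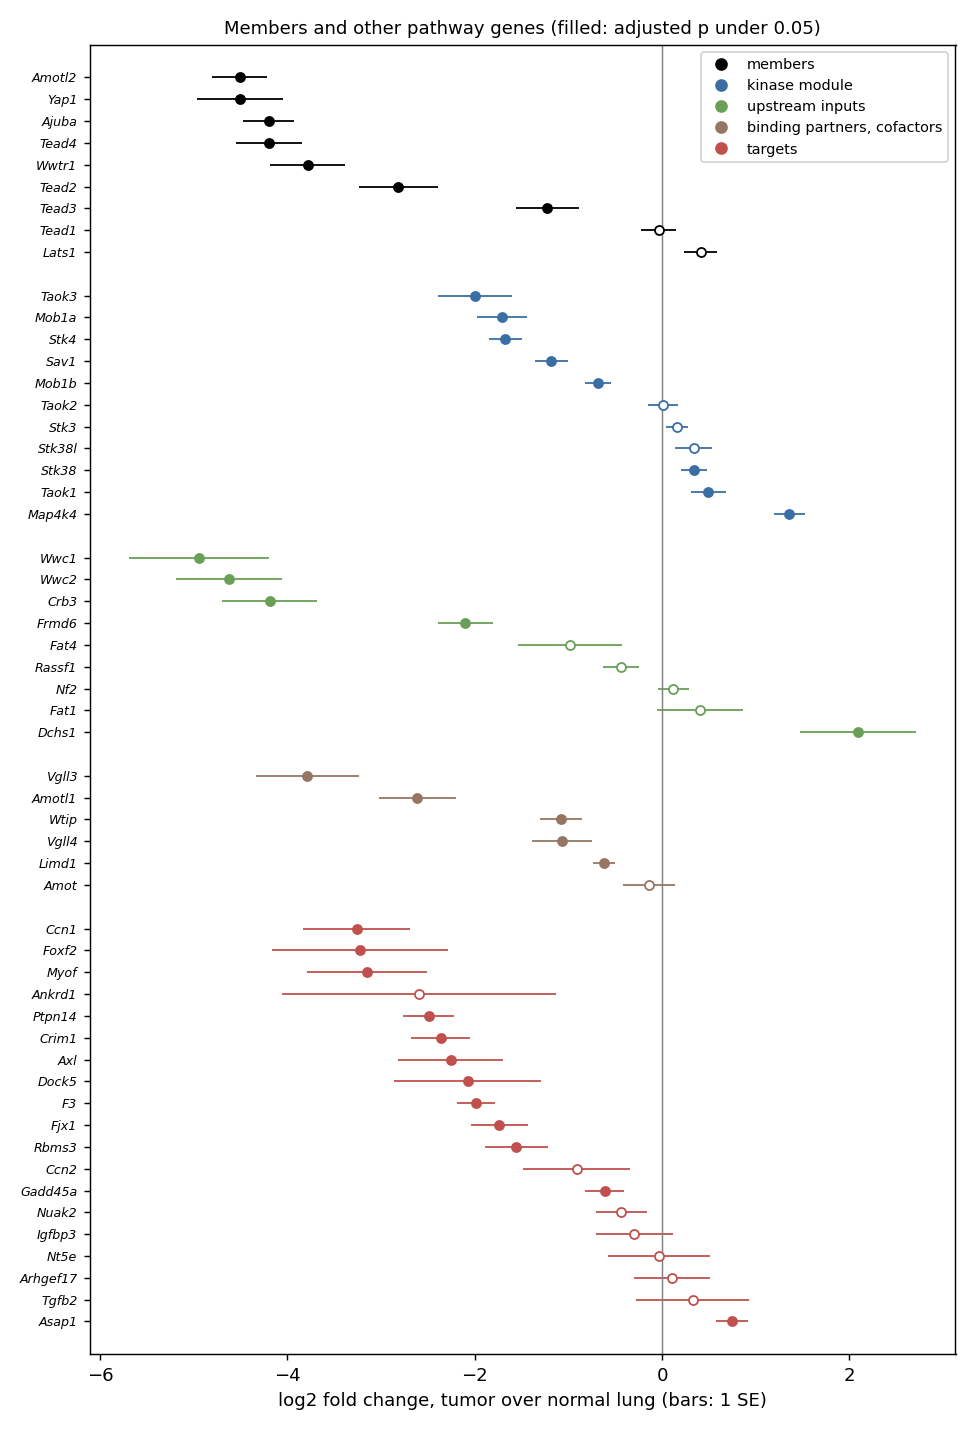
Log2 fold change of tumor over normal lung for the Hippo genes (black) and the 4 lists, with bars of 1 SE and filled points at an adjusted p under 0.05, without the sparsely counted Lats2 and Vgll2. Amotl2, Yap1, Ajuba, Tead4 and Wwtr1 lie between −4.51 and −3.78, and Map4k4, Dchs1 and Asap1 are the filled points furthest to the right.

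Of 19 genes known as targets of YAP, TAZ and TEAD 11 were lower, 1 higher and 7 not called, against 30.1% lower and 31.4% higher over all genes, with a median of −1.74. In 6 of the 19 every tumor lay below every normal lung, against 18.4% of all genes. Ptpn14, a phosphatase that also restrains YAP, had 2408 to 3771 normalized counts in normal lung and 259 to 847 in tumors (−2.49, SE 0.27, limma adjusted p = 3.69e-06). F3, the gene of tissue factor, went from 961 to 1305 in normal lung to 189 to 399 in tumors (−1.99, SE 0.20, limma adjusted p = 2.07e-06). Crim1 (−2.36), Fjx1 (−1.74), Rbms3 (−1.55) and Myof (−3.15) also had groups that did not overlap. Foxf2 (−3.23) was lower, with tumor 3 at 886 just above the lowest normal lung at 854. Asap1 was the 1 target gene higher in tumor (0.75, adjusted p = 0.00211), and that call was lost with the Y-linked covariate.

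The best known targets, the matricellular genes Ccn1 and Ccn2 and the muscle ankyrin repeat gene Ankrd1, had their highest tumor value in tumor 7. Ccn1 had 1804, 2991, 4682, 4950 and 4765 normalized counts in normal lung and 263, 216, 124, 462, 362, 354 and 2438 in tumors 1 to 7. Only tumor 7 reached the range of normal lung, and Ccn1 was lower by a log2 difference of −3.26 (SE 0.57, limma adjusted p = 2.41e-04). Ccn2 had 1110, 1221, 2397, 2232 and 1731 normalized counts in normal lung and 613, 1175, 206, 1097, 612, 832 and 4952 in tumors. Its tumor 7 value exceeded every normal lung, and Ccn2 was not called with all samples (−0.91, adjusted p = 0.178) but was lower without tumor 7 (−1.33, adjusted p = 0.0102). Ankrd1, which cardiac muscle expresses strongly, ranged in tumors from 1.98 in tumor 3 to 2613 in tumor 7, against 308 to 646 in normal lung. It was not called (−2.60, SE 1.46, adjusted p = 0.139). Without tumor 7 the log2 fold change was −3.47 (adjusted p = 0.0246). With edgeR and DESeq2, which left out tumor 3, the sign turned, to 0.57 and 0.46. In tumor 7 the sums of the cardiac and fibroblast markers were highest, as given above, and their part in these values was not tested.

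Calls among the targets also depended on the test. Axl was lower (−2.26, adjusted p = 0.00344) but not with edgeR (−1.31, adjusted p = 0.0574), with tumor 7 at 3398 within the range of normal lung. Dock5 (−2.08, adjusted p = 0.0331) lost its call in 13 of 23 alternatives, among them each that left out 1 normal lung or tumor 2, 3, 4 or 5, with tumor 7 at 2057 above all normal lungs, and Gadd45a (−0.61, adjusted p = 0.0219) lost it in 6, among them without normal lung 2, 3 or 4. Igfbp3, Nt5e, Arhgef17, Nuak2 and Tgfb2 were not called. Of these, Nuak2 was lower without tumor 7 (−0.61, adjusted p = 0.0192), and Tgfb2 had 10064 normalized counts in tumor 1 and 388 to 1390 in the other tumors.

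**Figure D4:**
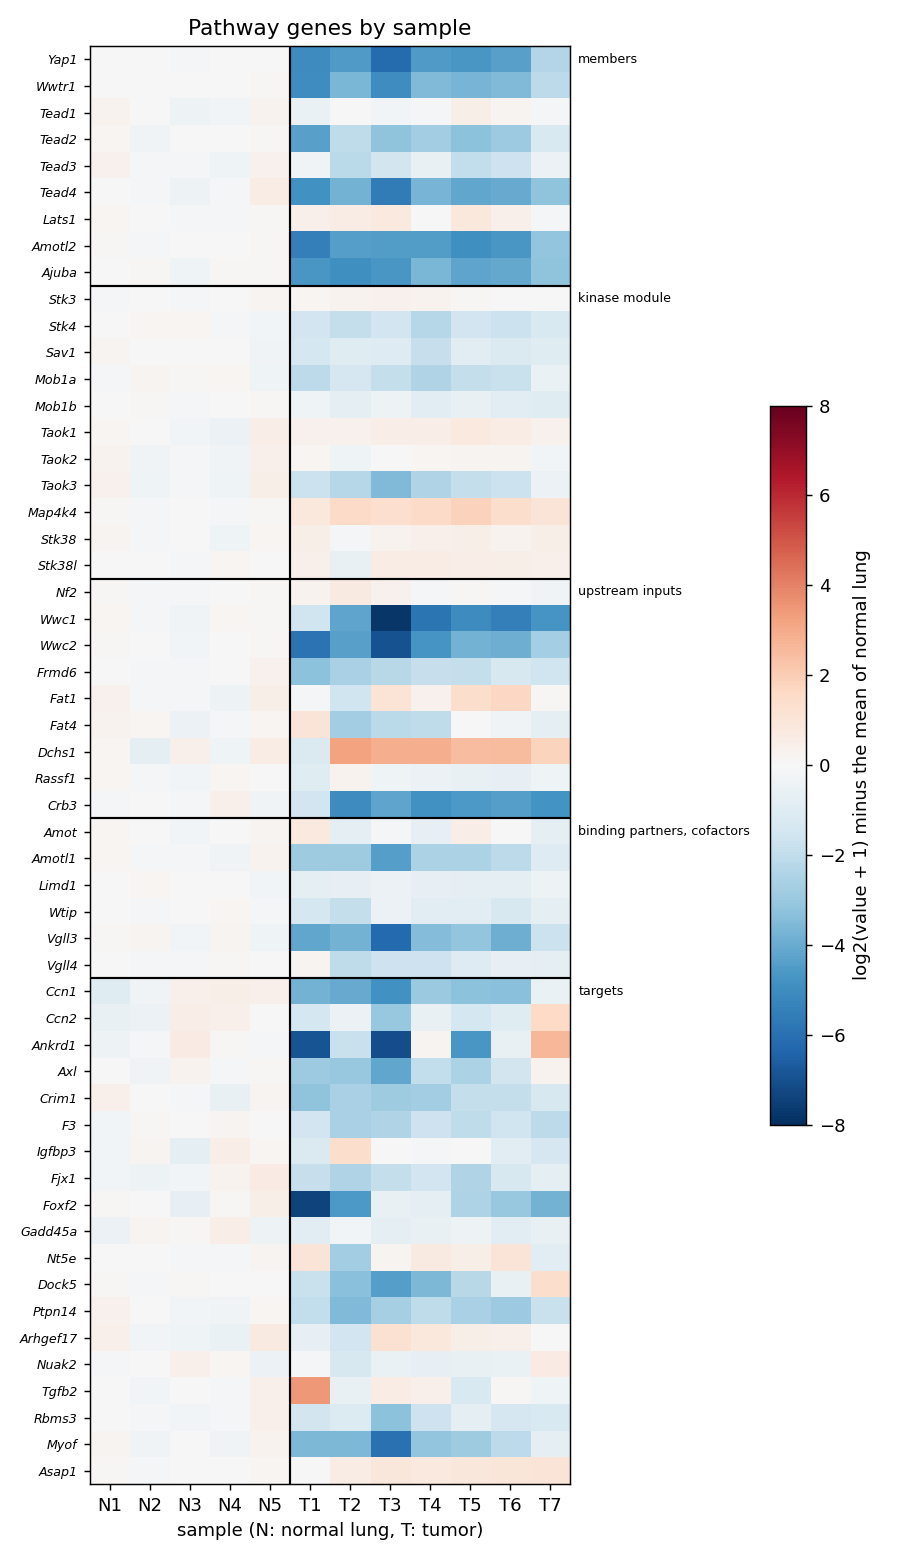
Heat map of log2(value + 1) minus the mean of normal lung, for the Hippo genes and the 4 lists (rows) in each sample (columns, N1 to N5 normal lung, T1 to T7 tumors), blue lower and red higher. Yap1, Tead4, Wwc1, Wwc2 and Vgll3 are darkest in tumor 3, and tumor 7 is palest for the 6 Hippo genes whose groups are apart, with Ccn2, Ankrd1 and Dock5 among the genes above normal lung there.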

How the data were processed

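The deposited table holds 1 column per sample of a normalized count signal, made by the authors with featureCounts and DESeq2 on GRCm39 per the submitters' processing notes. The aligner, the annotation and the use of strand are not given in the sources used here. Each column's values (100%, within a tolerance of 0.1 reads) were multiples of the worth of 1 read, so reads and depth could be recovered. The step of tumor 3 is close to 1, and its reads were not used in count tests. Among 31 same-group pairs of libraries, none was a duplicate (chi-square over degrees of freedom at least 19.8). Symbols and gene lengths came from GENCODE M21 (29982 of 30399 identifiers named).

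On log2(value + 1), genes averaging 1 or more were tested with limma 3.58.1 (lmFit, eBayes with trend, R 4.3.3) and Benjamini-Hochberg adjustment over all genes tested. Fold changes on this scale understate changes of low genes. Alternatives were edgeR 4.0.16 and DESeq2 1.42.0 on 11 samples, other scalings, filters and a pseudocount of 0.1, title numbers as shared sources, a Y-linked covariate, and leaving out samples. The fit was tested on simulated data with the same spread in both groups. For genes such as Yap1 and Wwtr1 the tumors varied far more than normal lung, which that test does not cover. Depth floors cover counting error only, since reads are not independent molecules. The members and lists were chosen with earlier results of these data known. Genes are named if they are members, belong to the pathway or marker lists, or are the 6 most like Yap1. Vgll1 and Actc1 were not analysed here. One gene of the neuroendocrine marker list is not reported here and was left out of its sum.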

Additional observations from a re-analysis of the deposited data

Results flagged for a closer look

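In 56 genes of the pathway, each group was searched for a single sample far from the others on the log2(value + 1) scale (Dixon's 95% limit, 0.710 for 5 samples and 0.568 for 7). Of 112 groups checked 9 held one, where chance gives about 1 in 20, or 5.6. None of the 9 came from tumor 7.

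Ajuba was low in normal lung 3, at 10.40 against 10.78 to 10.85 in the other normal lungs. Tumor 1 held 4 of the values that stood apart. There Dchs1 was at 7.60 against 10.54 to 11.96 in the other tumors, Asap1 at 10.87 against 11.50 to 11.93, Crb3 at 7.92 against 4.41 to 5.20, and Tgfb2 at 13.30 against 8.60 to 10.44. Tumor 2 held 3, with Stk38 at 11.19 against 11.55 to 11.74, Stk38l at 8.36 against 9.34 to 9.53, and the TEAD cofactor Vgll2 at 5.77 against 0 to 1.55. Vgll2 passed the filter on low values only through tumor 2, so its flag there follows from that filter. Rbms3 was low in tumor 3, at 8.66 against 10.26 to 11.15.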

How the results depend on the processing

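Of 23 alternatives, 12 left out 1 sample each. Apart from Lats2, each Hippo gene that was called kept its direction in all 23, and the count of genes lower in tumor stayed within 1.5 times in each list. The 0 Hippo genes called higher became 1 (Lats1) with equal totals, with same-numbered tumors averaged, without the trachea-titled tumors and with edgeR, and 0 to 1 when 1 sample was left out (1 without tumor 4 or 7). Of the kinases, 3 were higher, which became 5 with equal totals, 1 with the Y-linked covariate, 1 with same-numbered tumors averaged and 1 with them correlated, and 1 to 4 when 1 sample was left out (1 without normal lung 2, 3 or 4 or tumor 3, 4, 5 or 6, and 4 without tumor 2). The 1 upstream gene called higher (Dchs1) became 0 with the Y-linked covariate and with averaging, and the 1 target gene (Asap1) became 0 with the Y-linked covariate. The cause of these shifts was not tested. Equal totals, edgeR's TMM and DESeq2 moved the median of all genes by 0.19, 0.17 and 0.11. Lats2 could not be fitted at a mean of at least 10. The use of the longest transcript as gene length was chosen after seeing the data. No paired analysis was possible because the sample titles share no replicate number between normal lung and tumor. Depth limits Lats2 and Vgll2, which had 3 reads or fewer in most samples.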
